A study of Mus musculus with 2 samples.

Results

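Regulated exocytosis was followed in the mouse neurohypophysis (NH) through 9 genes chosen by name: *Snap25*, *Vamp2*, *Stx1a*, *Syt1*, *Syt4*, *Cplx1*, *Cplx2*, *Rab3a* and *Cadps*. They are 9 of the 27998 genes in the count files, and all 9 had at least 1 unique molecular identifier (UMI, the tag of a single captured mRNA molecule). The cells came from 2 pools of dissected NH tissue, each of 5 male C57BL/6 mice of 3 months of age, with no treatment and no genetic change. The single cells of a pool are not replicates, so that each cell type had 2 replicates, the pools, which were made from separate groups of mice. The dissected tissue also held residual intermediate lobe (IL) cells, the melanotrophs that make hormones from *Pomc*.

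Secretory cells store peptide hormones in dense core vesicles and release them when calcium enters the cell. Fusion is driven by SNARE proteins, where *Vamp2* sits on the vesicle and *Snap25* and *Stx1a* on the plasma membrane. Synaptotagmins such as *Syt1* sense calcium, complexins hold the assembled SNARE complex for them, *Rab3a* is a small GTPase that brings vesicles to the membrane, and *Cadps* primes dense core vesicles for release. In the NH, oxytocin and vasopressin are released from nerve endings whose cell bodies lie in the hypothalamus, so that the transcripts of those neurons are largely made outside the tissue that was dissociated.

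With the cell limits of the study 273 cells of pool 1 and 255 of pool 2 were kept, with 699676 and 726706 UMIs and no barcode shared between the pools. They fell into 7 cell types: 196 pituicytes (the glia of the NH), 148 IL cells, 95 macrophage/microglia, 42 T-cell like, 23 epithelial-like, 13 vascular endothelia and 11 VLMC (vascular and leptomeningeal cells). In the deposited table of cluster means both IL clusters are named neural progenitor (a and b) and the VLMC cluster OPC/LVMC, and they were read here as the IL cells and VLMC of the study from their markers and numbers of cells. All 6 IL markers were detected in IL cells, where they summed to 126600 counts per 1000000 UMIs (CPM) in pool 1 and 96297 in pool 2, and to no more than 4822 CPM in any other type. The cells called VLMC held their own 6 markers at 17430 and 7617 CPM and the 5 oligodendrocyte markers at 18372 and 17353 CPM, so that the oligodendrocyte sum was the higher one in both pools. Of 7 markers of anterior lobe endocrine cells, 5 had UMIs in epithelial-like cells (*Tshb* and *Pou1f1* at 0) and 5 in IL cells (*Lhb* and *Fshb* at 0), and they summed to 35357 CPM in the epithelial-like cells of pool 1 and 9421 CPM in the IL cells of pool 2. The other sums of these genes were at most 2758 CPM, and their part in the results was not tested. The IL cells held 281271 and 249540 UMIs, and the smallest types only 8491 to 15098 per pool.

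The window from 250 bases before to 50 after the RefSeq start is printed for 4 of the genes, to show what paralogs or partners with unlike patterns share there: *Cplx1* and *Cplx2*, paralogs of which IL cells held 0 and 97 UMIs, and *Syt1* and *Rab3a*, of which the first was found mostly in IL cells and the second in IL cells and pituicytes. The windows are on build GRCm38.p6, Syt1 at chr10:109010926-109011225 on the minus strand, Cplx1 at chr5:108549978-108550277 on the minus strand, Cplx2 at chr13:54302306-54302605 on the plus strand and Rab3a at chr8:70754453-70754752 on the plus strand. RefSeq gives *Syt1* and *Rab3a* a second start each, and the first of the 2 windows is printed. Capitals mark the GC box GGGCGG and the CRE half-site TGACG, each on either strand.
Syt1: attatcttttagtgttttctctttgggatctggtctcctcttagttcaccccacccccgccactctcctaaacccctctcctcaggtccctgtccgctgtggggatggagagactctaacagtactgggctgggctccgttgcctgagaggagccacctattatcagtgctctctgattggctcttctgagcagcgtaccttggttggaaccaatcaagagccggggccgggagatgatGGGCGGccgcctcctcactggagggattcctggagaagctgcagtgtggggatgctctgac
Cplx1: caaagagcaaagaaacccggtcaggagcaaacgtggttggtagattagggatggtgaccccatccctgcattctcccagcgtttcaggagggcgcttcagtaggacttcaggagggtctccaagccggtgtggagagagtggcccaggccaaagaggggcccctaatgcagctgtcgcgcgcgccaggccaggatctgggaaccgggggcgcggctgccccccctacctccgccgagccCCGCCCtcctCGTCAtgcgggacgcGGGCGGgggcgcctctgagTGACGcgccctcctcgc
Cplx2: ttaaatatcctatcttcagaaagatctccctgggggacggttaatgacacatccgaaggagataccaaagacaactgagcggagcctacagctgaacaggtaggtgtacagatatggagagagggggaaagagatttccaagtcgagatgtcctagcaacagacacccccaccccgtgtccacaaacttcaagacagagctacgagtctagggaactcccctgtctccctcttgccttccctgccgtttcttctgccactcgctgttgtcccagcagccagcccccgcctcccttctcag
Rab3a: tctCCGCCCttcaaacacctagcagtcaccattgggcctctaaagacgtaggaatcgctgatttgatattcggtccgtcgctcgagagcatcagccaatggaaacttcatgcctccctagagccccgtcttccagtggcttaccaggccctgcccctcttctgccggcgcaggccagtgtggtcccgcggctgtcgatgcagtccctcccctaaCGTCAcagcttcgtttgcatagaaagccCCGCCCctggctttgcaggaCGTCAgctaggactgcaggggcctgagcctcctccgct
The *Cplx1* window held 24 CpG dinucleotides, 2 GC boxes and 2 CRE half-sites, and the *Cplx2* window 9 CpG dinucleotides and neither motif. The *Rab3a* window held 18 CpG dinucleotides, 2 GC boxes and 2 CRE half-sites, and the *Syt1* window 8 CpG dinucleotides and 1 GC box. The second windows held neither motif, with 22 CpG dinucleotides for *Rab3a* and 6 for *Syt1*. Of the 32851 RefSeq windows of this length, 35.7% held a GC box and 20.8% a CRE half-site, and their median was 7 CpG dinucleotides. The start sites used in these cells were not measured, the motifs were chosen after the levels were known, and a match describes the letters of the window and nothing more. RefSeq and the annotation of the genes place the start of *Cplx2* differently, since the GENCODE gene begins at base 54371349 of chromosome 13.

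The first question was which cells of the NH preparation carry the transcripts of release. Of the 9 genes, 6 passed a filter on low counts (at least 87.7 CPM in 2 of the 14 sums of a type and pool) and were tested: *Snap25*, *Vamp2*, *Syt1*, *Syt4*, *Cplx2* and *Rab3a*. *Syt1*, *Cplx2* and *Rab3a* passed it only through the IL cells, and *Stx1a*, *Cplx1* and *Cadps* did not pass. In edgeR's quasi-likelihood test of IL cells against the mean of the other 6 types, all 6 tested genes were called higher. *Snap25*, *Vamp2* and *Syt4* also had 2 sums of other types over the cutoff. The cutoff itself was set with the IL sums included, and whether these genes would pass one set without them was not computed. Because *Syt1*, *Cplx2* and *Rab3a* entered through the cells where they are high, the count of 6 is a description and not support for a difference. The same holds for the p-values of these 3 genes in IL cells. A call needed a natural log (ln) fold change of 1 or more, which is 2.72-fold, and a p of 0.05 or less after Benjamini-Hochberg adjustment over all genes. The SE printed with an edgeR value was derived, as the absolute ln fold change divided by the square root of the test's F. It is approximate, and not reliable where a type has few or 0 UMIs. Of all 4510 genes tested, 16.9% were called higher in IL cells. The types were clustered by the authors on genes of these same cells, so that these p-values are not independent of the types, and clustering again without the exocytosis genes is given among the alternatives. A fitted fold change against types at 0 UMIs depends on the prior count of edgeR and is no bound. The ratio of IL cells to the sum of all other cells is therefore given gene by gene. Where the pools of IL cells are said to lie apart from other sums, the share of all genes with such a gap was not computed.

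**Figure D1:**
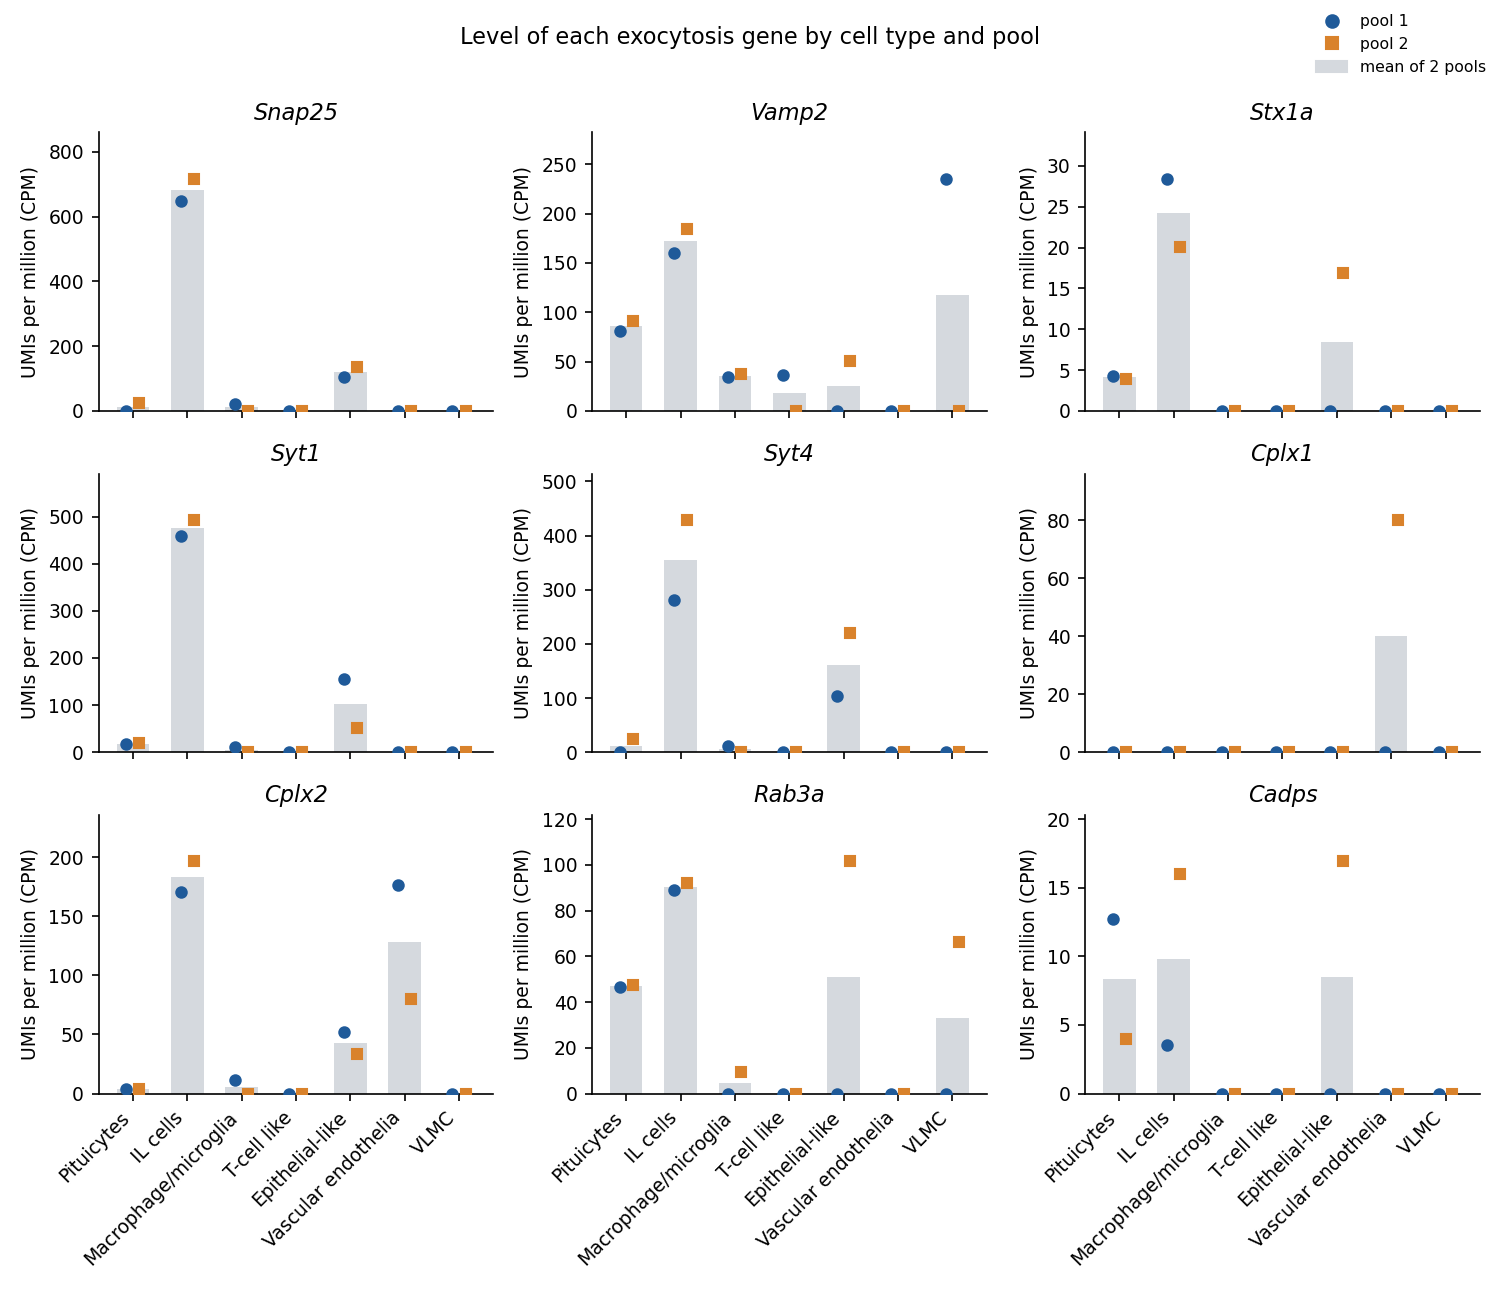
Each panel plots the level of 1 exocytosis gene in CPM (linear axis, its own scale) in the 7 cell types, with pool 1 as circles, pool 2 as squares and the mean of the 2 pools as a bar. In *Snap25*, *Vamp2*, *Syt1*, *Syt4*, *Cplx2* and *Rab3a*, and at few UMIs in *Stx1a*, both pools of IL cells lie above both pools of pituicytes and of immune cells. The share of all genes with this pattern was not computed, and *Syt1*, *Cplx2* and *Rab3a* passed the filter only through the IL cells, so that it is a description. Pituicytes held 80.6 and 90.7 CPM of *Vamp2* and 46.7 and 47.3 CPM of *Rab3a*. Of *Snap25*, *Syt1*, *Syt4* and *Cplx2* they held at most 23.7 CPM in a pool.

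*Snap25* encodes a plasma membrane SNARE of the fusion complex. Its gene (ENSMUSG00000027273) lies on chromosome 2 at bases 136713453 to 136782428 of GRCm38 and overlaps the predicted gene *Gm14053* on the other strand. Whether the counting used strand is not given in the sources used here. IL cells held 182 *Snap25* UMIs in pool 1 and 179 in pool 2, which is 647 and 717 CPM (682 ± 49.7, SD, n = 2 pools). The other 380 cells held 18 UMIs in 8 cells, 4 in pool 1 and 14 in pool 2. Of the *Snap25* UMIs of the kept cells, 95.3% were thus in IL cells. The pools of IL cells did not overlap with those of any other type, the highest of which was 135 CPM in the epithelial-like cells of pool 2. The ln fold change against the mean of the other types was 4.87 (SE 0.32, adjusted p = 2.9e-49, edgeR), or 3.89 with DESeq2 (adjusted p = 0.0011). The 14 sums share one estimate of the spread. This p and those of the genes below therefore do not measure the spread between the 2 pools of IL cells alone. The ln fold change ran from 3.89 to 5.51 over the 25 fits that were made, and *Snap25* was called in all of them. The ratio of IL cells to all other cells was 33.8, with a counting interval of 21.1 to 57.7, at 67.7 in pool 1 and 24.4 in pool 2.

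*Vamp2*, the vesicle SNARE that pairs with *Snap25*, was spread more widely. Its level in IL cells was 160 CPM in pool 1 and 184 in pool 2 (172 ± 17.2, SD, n = 2 pools), and in pituicytes 80.6 and 90.7 CPM (85.7 ± 7.15). Macrophage/microglia held 33.8 and 37.1 CPM, and 1 VLMC sum of 2 UMIs reached 235 CPM. IL cells therefore stood above pituicytes and immune cells in both pools but not above every sum. The ln fold change in IL cells against the mean of the other types was 2.07 (SE 0.35, adjusted p = 7.7e-08), and it rose to 2.66 without the epithelial-like cells of pool 2, to 2.60 without the T-cell like cells of pool 1 and to 2.70 without the VLMC of pool 1. With DESeq2 it was 1.62 (adjusted p = 0.0050). The ratio to all other cells was 2.74 (counting interval 1.94 to 3.90). The gene (ENSMUSG00000020894) lies on chromosome 11 at bases 69088490 to 69092384.

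*Stx1a*, the syntaxin of the same complex, was close to the detection limit. It had 13 UMIs in 11 IL cells, 8 in pool 1 and 5 in pool 2 (28.4 and 20.0 CPM), and 3 UMIs in the other 380 cells. In the 54 cells of the IL cluster b there were 11 of these UMIs, and in the 94 cells of cluster a there were 2. The ratio of IL cells to other cells was 7.31, with a wide counting interval of 2.01 to 40.0. When no filter on low counts was used, edgeR called *Stx1a* higher in IL cells (ln fold change 2.51, SE 0.77, adjusted p = 0.013). The annotated gene (ENSMUSG00000007207) lies on chromosome 5 at bases 135023482 to 135051100.

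*Syt1* encodes the fast calcium sensor of vesicle fusion. IL cells held 459 CPM in pool 1 and 493 in pool 2 (476 ± 24.2, SD, n = 2 pools), from 129 and 123 UMIs. Pituicytes held 17.0 and 19.7 CPM, epithelial-like cells 155 and 50.8 CPM, and T-cell like cells, vascular endothelia and VLMC had no UMI in either pool. Both pools of IL cells lay above every other sum. Against the mean of the other types its ln fold change was 4.62 (SE 0.35, adjusted p = 5.8e-38), or 3.62 with DESeq2 (adjusted p = 7.4e-09), and the ratio to all other cells was 26.6 (counting interval 16.05 to 47.2). Since *Syt1* passed the filter only through the IL cells, these p-values are a description and not support for a difference. The gene (ENSMUSG00000035864) lies on chromosome 10 at bases 108497650 to 109010982, and the annotated genes Gm5136 and Gm47477 overlap it on the same strand, so that their reads might not be told apart from its own.

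*Syt4*, a synaptotagmin found on dense core vesicles, varied more between the pools. IL cells held 281 CPM in pool 1 and 429 in pool 2 (355 ± 105, SD, n = 2 pools). Epithelial-like cells were next with 104 and 220 CPM, and pituicytes held 0 and 23.7 CPM. The IL cells of each pool lay above every other sum. Its ln fold change was 4.24 (SE 0.37, adjusted p = 1.1e-27), or 3.30 with DESeq2 (adjusted p = 0.020). The ratio to all other cells was 14.3 (counting interval 9.15 to 23.3), at 39.2 in pool 1 and 10.8 in pool 2. Of the 22 *Syt4* UMIs outside IL cells 19 were in pool 2. The gene (ENSMUSG00000024261) overlaps the predicted gene Gm26658 on the other strand.

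The complexins bind the assembled SNARE complex and are coded by paralogs. *Cplx2* was at 171 CPM in the IL cells of pool 1 and 196 in those of pool 2 (184 ± 18.2, SD, n = 2 pools), from 48 and 49 UMIs. All pituicytes together held 2 UMIs (4.24 and 3.95 CPM), and the vascular endothelia held 3 UMIs, which in these small sums is 176 and 80.1 CPM. The pool 1 value of the vascular endothelia thus lay above the lower IL value, and edgeR found a ln fold change of IL cells against vascular endothelia of 1.06 (SE 0.58, adjusted p = 0.24). Against the mean of the other types the ln fold change of *Cplx2* was 3.33 (SE 0.39, adjusted p = 1.0e-15), or 2.70 with DESeq2 (adjusted p = 7.5e-05). Since *Cplx2* passed the filter only through the IL cells, these p-values too are a description. *Cplx1* had 0 UMIs in all 148 IL cells, which allows a level of up to 5.65 CPM at 3 counts, and 1 UMI in 1 endothelial cell of pool 2. The *Cplx1* gene (ENSMUSG00000033615) lies on chromosome 5 at bases 108518554 to 108550024, and the *Cplx2* gene (ENSMUSG00000025867) on chromosome 13 at bases 54371349 to 54383917. At this depth *Cplx1* was not detectable in IL cells, where *Cplx2* was found in both pools.

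*Rab3a*, the GTPase of secretory vesicles, was detected in IL cells and in pituicytes. IL cells held 88.9 and 92.2 CPM (90.5 ± 2.32, SD, n = 2 pools) and pituicytes 46.7 and 47.3 CPM (47.0 ± 0.47). In the epithelial-like cells all 6 UMIs were in pool 2, at 102 CPM, above both IL values. *Rab3a* passed the filter only through the IL cells, so that its p-values there are a description and not support for a difference. The ln fold change in IL cells against the mean of the other types was 2.33 (SE 0.50, adjusted p = 4.9e-05, edgeR), and DESeq2 did not call it (ln fold change 1.71, adjusted p = 0.14). Without the epithelial-like cells of pool 2 the value was 3.02, and without the VLMC of pool 2 it was 2.86. The ratio to all other cells was 2.61 (counting interval 1.63 to 4.25). The gene (ENSMUSG00000031840) lies on chromosome 8 at bases 70754679 to 70758677 and overlaps *Mpv17l2* on the other strand.

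*Cadps*, the priming factor, was too rare for a comparison. It had 1 UMI in the IL cells of pool 1 and 4 in those of pool 2 and 5 UMIs in the other 380 cells, 4 of them in pituicytes. The ratio of IL cells to other cells was 1.69, with a counting interval of 0.39 to 7.33 that includes 1, and its direction turned between the pools (0.50 in pool 1 and 3.82 in pool 2). The gene (ENSMUSG00000054423) lies on chromosome 14 at bases 12372563 to 12823079, and the annotated genes *Gm48267*, *Gm48266* and n-R5s45 overlap it on the same strand. The 9 genes were also ordered by the share of their UMIs in the kept cells that was found in IL cells. Over both pools together the order was *Snap25* (95.3%), *Syt1* (94.0%), *Cplx2* (91.5%), *Syt4* (89.4%), *Stx1a* (81.3%), *Vamp2* (61.9%), *Rab3a* (60.8%), *Cadps* (5 of 10 UMIs) and *Cplx1* (0 of 1 UMI). The order of the leading genes differed by pool, since *Syt4* had 96.3% in pool 1 and 84.9% in pool 2, and in pool 2 *Syt1* (93.9%) was ahead of *Snap25* (92.7%).

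The next question was whether IL cells differ in these genes from the types that came nearest, pituicytes and epithelial-like cells. Against pituicytes, 4 of the 6 tested genes were called higher in IL cells, where 6.72% of all genes tested were. They were *Snap25* (ln fold change 4.01, SE 0.33), *Cplx2* (3.62, SE 0.45), *Syt4* (3.35, SE 0.34) and *Syt1* (3.27, SE 0.31). Because *Syt1* and *Cplx2* passed the filter only through the IL cells, the count of 4 is a description and not support for a difference. *Vamp2* had an adjusted p of 0.021 but a ln fold change of 0.77 (SE 0.26), under the limit of 1. *Rab3a* had a ln fold change of 0.72 (SE 0.34, adjusted p = 0.13). Leaving out either pool of pituicytes moved *Snap25* to 3.40 or 6.28 and *Syt4* to 2.74 or 5.62, and both stayed called. Without the cells of other types that were rich in *Pomc* or *Gh* (described with the UMIs outside IL cells) the values were 5.40 for *Snap25*, 5.07 for *Cplx2*, 5.72 for *Syt4* and 4.56 for *Syt1*. With a mitochondrial share under 10% they were 3.16, 3.13, 2.24 and 2.83 in the same order. All 4 genes were called in both settings, and DESeq2 called 3 of the 4.

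**Figure D2:**
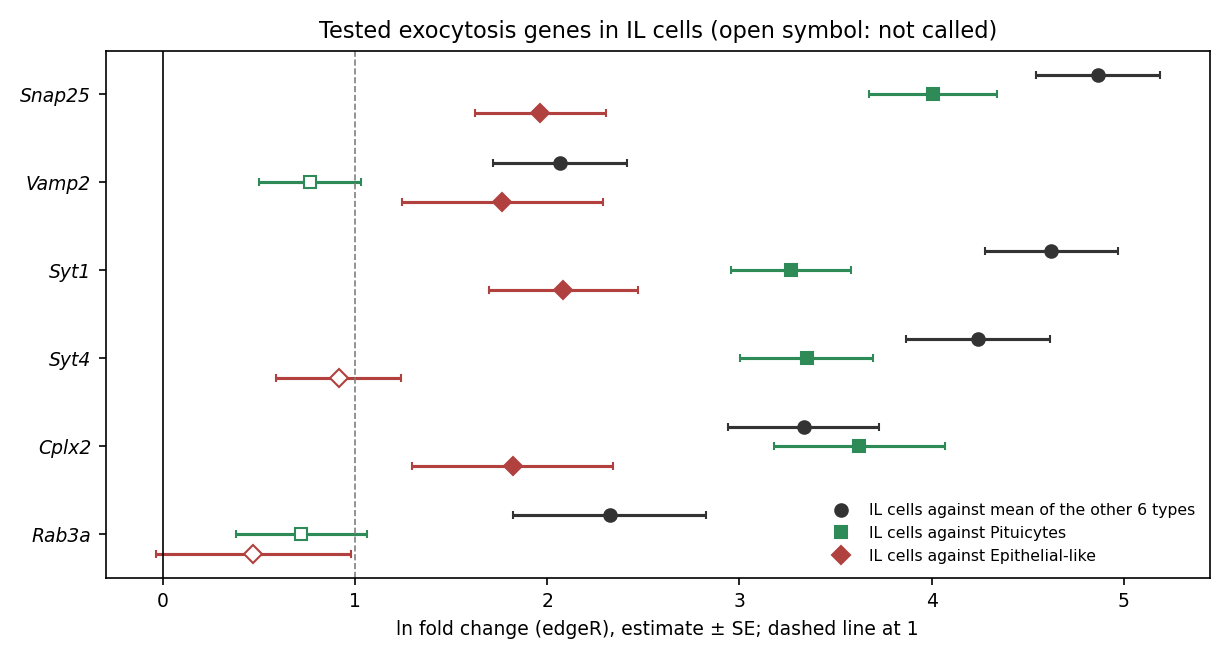
The ln fold changes (linear axis) of the 6 tested exocytosis genes are plotted for IL cells against the mean of the other 6 types (circles), against pituicytes (squares) and against epithelial-like cells (diamonds). Bars are 1 approximate SE, derived as the ln fold change over the square root of edgeR's F, and open symbols mark values that were not called. *Vamp2* and *Rab3a* were not called against pituicytes, and *Syt4* and *Rab3a* not against epithelial-like cells.

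Against epithelial-like cells, 4 of the 6 genes were called higher in IL cells, beside 3.24% of all genes tested. They were *Syt1* (ln fold change 2.08, SE 0.39), *Snap25* (1.96, SE 0.34), *Cplx2* (1.82, SE 0.52) and *Vamp2* (1.77, SE 0.52). This count too is a description, since *Syt1* and *Cplx2* passed the filter only through the IL cells. *Syt4* had a ln fold change of 0.92 (SE 0.33, adjusted p = 0.052), and with the pool as a replicate block it was called (1.01, adjusted p = 0.027). *Rab3a* had 0.47 (SE 0.51, adjusted p = 0.69). These counts rest on 23 epithelial-like cells, 7 of pool 1 and 16 of pool 2. Without their pool 2 sum only 1 gene was called, without their pool 1 sum 2 genes, without the IL cells of pool 2 also 2 genes, and DESeq2 called 0.

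Pituicytes and epithelial-like cells were themselves compared with the mean of the other types. In pituicytes *Vamp2* was called higher (ln fold change 1.17, SE 0.45, adjusted p = 0.044), beside 16.8% of all genes tested. This call was lost in 12 of 24 alternatives. Among them were DESeq2, free RNA subtracted (described with the ratios to *Pomc*) and leaving out either pool of pituicytes. *Rab3a* in pituicytes had a ln fold change of 1.49 (SE 0.61, adjusted p = 0.064). In epithelial-like cells *Syt4* (ln fold change 3.17, SE 0.65, adjusted p = 3.5e-05) and *Snap25* (2.57, SE 0.72, adjusted p = 0.0060) were called higher, beside 8.00% of all genes tested. Without the epithelial-like cells of pool 2 neither was called (2.36, adjusted p = 0.50, and 2.15, adjusted p = 0.55), nor with DESeq2 (2.26, adjusted p = 0.30, and 1.73, adjusted p = 0.48). *Syt1* in epithelial-like cells had a ln fold change of 2.19 (SE 0.83, adjusted p = 0.082).

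In 4 types (macrophage/microglia, T-cell like, vascular endothelia, VLMC) edgeR called none of the 6 tested genes higher. Of all genes tested, 16.5% were called higher in the first of these types, 9.47% in the second, 3.41% in the third and 2.88% in the last. At an unadjusted p under 0.05 the counts were 0, 0, 1 (*Cplx2* in vascular endothelia, ln fold change 2.1, SE 0.96) and 0, and DESeq2 also called 0 in each of them. T-cell like cells held 2 UMIs of the 9 genes, both of *Vamp2* and both in pool 1. For most genes in the vascular endothelia and VLMC a count of 0 allows levels of up to 126 and 127 CPM, so that only levels above these could be seen.

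The genes were also compared by the share of cells with a UMI. *Snap25* had a UMI in 113 of 148 IL cells (76.4%, exact Clopper-Pearson 95% interval 68.7 to 82.9), at 75.0% in pool 1 and 77.9% in pool 2. The share was 72.3% for *Syt1*, 59.5% for *Syt4*, 43.9% for *Cplx2*, 41.2% for *Vamp2*, 27.0% for *Rab3a*, 7.43% for *Stx1a* and 3.38% for *Cadps*. IL cells were deeper, with a median of 3249 UMIs per cell, than macrophage/microglia (1739) and T-cell like cells (1596). In the macrophage/microglia the share was 1.05%, or 1 cell, for *Snap25*, *Syt1*, *Syt4*, *Cplx2* and *Rab3a*, 7.37% for *Vamp2* and 0 of 95 cells for *Stx1a* and *Cadps*. The cell with *Snap25*, *Syt1* and *Syt4* was one that Scrublet called a doublet. The share in T-cell like cells was 4.76% for *Vamp2* and 0 of 42 for each of the other genes.

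With each cell thinned to 1000 UMIs, which left out no cell, the shares in IL cells fell but stayed above those of the other cells for the leading genes. *Snap25* was then in 38.5% of IL cells (interval 30.6 to 46.9) and in 1.58% of the other cells. *Syt1* was in 36.5% of IL cells and 0.53% of the others, and *Syt4* in 28.4% and 0.26%. For *Cplx2* the thinned shares were 14.9% and 0.79%. The thinned share of *Vamp2* was 13.5% in IL cells (8.45 to 20.1) and 9.69% in pituicytes (5.94 to 14.7), and that of *Rab3a* 9.46% (5.27 to 15.4) and 5.10% (2.47 to 9.18). *Stx1a* and *Cadps* were in 3 and 2 thinned IL cells, which is near the level of 1 UMI.

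**Figure D3:**
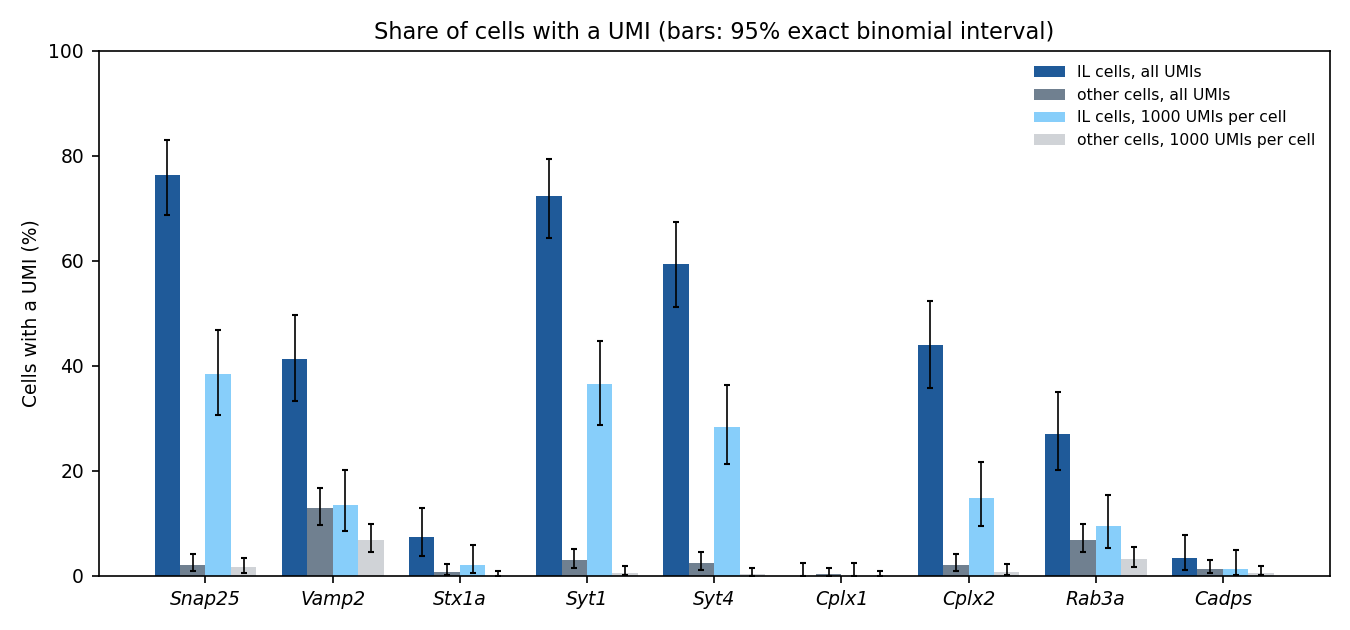
The share of cells with at least 1 UMI (%, linear axis) is shown for IL cells and for all 380 other cells, with all UMIs and with 1000 UMIs per cell, and the bars are exact Clopper-Pearson 95% intervals. *Snap25* drops from 76.4% to 38.5% of IL cells with thinning, and *Cplx1* is at 0 in IL cells in both.

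Single IL cells often carried several parts of the machinery. The median IL cell had UMIs of 3 of the 9 genes, and 104 of 148 (70.3%) had 3 or more, with 70.0% in pool 1 and 70.6% in pool 2. Of the other 380 cells, 5 had 3 or more, namely 3 epithelial-like cells, 1 pituicyte and 1 macrophage/microglia. *Snap25* and *Syt1* were found together in 89 IL cells, *Snap25* alone in 24, *Syt1* alone in 18 and neither in 17. After thinning to 1000 UMIs 21 IL cells (14.2%) and 0 other cells had 3 or more genes. Within IL cells the number of genes found rose with depth and with the share of *Pomc*, and the mitochondrial share was not in the same order. The 9 IL cells with none of the genes had a median of 1115 UMIs, 0.59% of them from *Pomc* and 12.0% mitochondrial. The 35 cells with 1 or 2 had a median of 2349 UMIs, 8.78% from *Pomc* and 12.9% mitochondrial. The 104 cells with 3 or more had a median of 3664.5 UMIs, 10.1% from *Pomc* and 9.03% mitochondrial. The part of depth in these counts was not tested beyond the thinning, and that of the *Pomc* and mitochondrial shares was not tested.

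**Figure D4:**
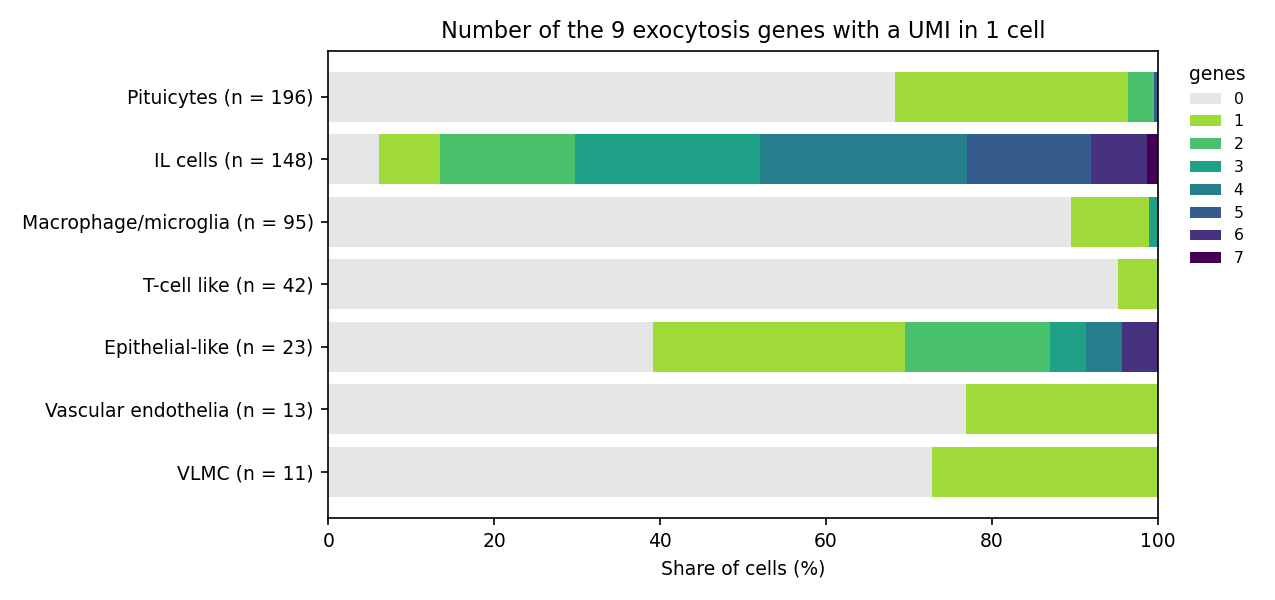
Each horizontal bar is 1 cell type, split by the share of its cells (%) that had UMIs of 0 to 7 of the 9 exocytosis genes in the same cell. Of the IL cells 70.3% had 3 or more, whereas 95.2% of T-cell like cells and 68.4% of pituicytes had none.

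Counts per cell were low even in IL cells. *Snap25* had 2 or more UMIs in 87 of them and at most 16, *Syt1* 2 or more in 71 and at most 11, and *Syt4* 2 or more in 44 and at most 11. *Cplx2*, *Vamp2* and *Rab3a* reached at most 4, 4 and 2 UMIs in a cell. The IL cells were in the 2 clusters deposited as neural progenitor a (94 cells) and b (54 cells), and the levels of the machinery were set side by side as a description. *Syt1* was at 361 and 453 CPM in cluster a of pools 1 and 2, and at 554 and 550 CPM in cluster b. *Syt4* was at 202 and 406 CPM in cluster a and at 358 and 462 CPM in cluster b. *Snap25* was at 627 and 663 CPM in cluster a and at 666 and 796 CPM in cluster b. Cluster b was higher than cluster a in both pools in these 3 genes and in *Vamp2*, *Cplx2* and *Stx1a*. In the deposited cluster means *Vamp2* was instead lower in cluster b (1.60) than in cluster a (1.67), and the others of these genes were higher. *Pomc* was lower in cluster b (109005 and 77712 CPM) than in cluster a (130115 and 97886 CPM), and its part in these levels was not tested. The share of all genes that were higher in cluster b was not computed. *Rab3a* was at 93.8 and 74.4 CPM in cluster a and at 84.1 and 118 CPM in cluster b, so that its direction turned between the pools, and all 5 *Cadps* UMIs were in cluster a.

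UMIs of the machinery outside IL cells were traced to the cells that held them. Of the pituicyte UMIs, 1 cell of pool 2 held 5 of 6 for *Snap25*, all 6 for *Syt4* and 4 of 9 for *Syt1*. This cell had 7025 UMIs, 9.05% of them from *Pomc*, and 22 UMIs of *Scg2*, a granin of dense core vesicles. The median pituicyte had 0.031% of its UMIs from *Pomc*. The 42 *Vamp2* UMIs of pituicytes were spread over 36 cells and the 23 *Rab3a* UMIs over 20 cells, with no cell above 2 of either. In the epithelial-like cells *Snap25* had 10 UMIs in 5 of 23 cells and *Syt4* 15 in 7. The 3 epithelial-like cells with 3 or more of the genes, all of pool 2, held 2, 3 and 2 UMIs of *Snap25* and 1, 3 and 5 of *Syt4*. In the same order they had 2, 40 and 27 UMIs of *Scg2* and 0.17%, 0.70% and 0.30% of their UMIs from *Pomc*. The single macrophage/microglia with *Snap25*, *Syt1* and *Syt4* UMIs had 1.78% of its UMIs from *Pomc*, and Scrublet called 5 cells in all doublets.

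The results were therefore repeated without the 9 cells of other types that had over 1% of their UMIs from *Pomc* or from *Gh* (growth hormone), an alternative added after the data were seen. The ln fold change of IL cells against the mean of the other types rose to 5.51 for *Snap25*, 5.17 for *Syt1* and 4.92 for *Syt4*. *Rab3a* then failed the filter on low counts and was not tested, and the 5 remaining genes were all called. In epithelial-like cells *Syt4* (3.86, adjusted p = 6.7e-07) and *Snap25* (3.04, adjusted p = 0.0019) were still called higher. The 3 epithelial-like cells with 3 or more of the genes, of which 2 held 40 and 27 *Scg2* UMIs, were under this limit and stayed in. The part of these cells in the calls was not tested.

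UMIs were also set against those of *Pomc*, the most frequent IL transcript, since free RNA of a single source would carry its transcripts in one ratio. IL cells of both pools held 6.45 *Snap25* UMIs per 1000 *Pomc* UMIs (interval 5.80 to 7.15 from the counting error of *Snap25*). By pool they held 5.42 (4.66 to 6.27) in pool 1 and 8.00 (6.87 to 9.26) in pool 2. The 157608 barcodes of pool 1 with 1 to 50 UMIs held 4.06 (3.37 to 4.85). This interval overlaps that of the IL cells of pool 1, which does not show that the ratios are equal. For *Syt1* the ratio was 3.84 (3.21 to 4.56) in the IL cells of pool 1 and 2.22 (1.71 to 2.82) in these barcodes, without overlap. The intervals did overlap for *Syt4* (2.35 and 1.85) and *Cplx2* (1.43 and 1.91). Pituicytes held 3.44 *Snap25* UMIs per 1000 *Pomc* UMIs (1.26 to 7.49), which includes the 6.45 and the 4.06. Of these pituicyte UMIs, 1 cell of pool 2 held 5 of the 6 of *Snap25* and 636 of the 1744 of *Pomc*, so that the ratio rests largely on that cell. Another pituicyte, of pool 1 with 4420 UMIs, had 17.7% of them from *Pomc*. The *Pomc* count under every pituicyte ratio given here therefore rests largely on few cells. For the IL marker *Pcsk2* the ratio was 44.4 in IL cells (40.3 in pool 1) and 14.8 in the low-UMI barcodes, so that these 2 sources did not share one ratio. For *Vamp2* the ratio was 1.63 in IL cells (1.31 to 2.00, and 1.34 in pool 1), 2.92 in the low-UMI barcodes and 24.1 in pituicytes (17.4 to 32.6). For *Rab3a* it was 0.86 in IL cells (0.63 to 1.14, and 0.74 in pool 1), 2.11 in the low-UMI barcodes and 13.2 in pituicytes (8.36 to 19.8). In macrophage/microglia and T-cell like cells together, with 250 *Pomc* UMIs, it was 36.0 for *Vamp2* (16.5 to 68.3), from 9 UMIs, and 4.0 for *Rab3a* (0.10 to 22.3), from 1 UMI. The ratio of *Vamp2* was thus higher in pituicytes and in immune cells than in IL cells and low-UMI barcodes, and that of *Rab3a* in pituicytes, by more than the counting error. In epithelial-like cells the ratio of *Snap25* was 44.4 (21.3 to 81.7) and that of *Syt4* 66.7 (37.3 to 110), against 3.32 for *Syt4* in IL cells. In 1 of the alternatives free RNA with the profile of the low-UMI barcodes of pool 1 was subtracted from each sum of both pools. Its share, 6.10% in pool 1 and 5.19% in pool 2, was set from the *Pomc* UMIs of the immune cells. These included the macrophage/microglia of pool 1 that Scrublet called a doublet, with 50 of the 111 *Pomc* UMIs of that type and pool. The share without this cell was not computed. The 6 tested genes were again called higher in IL cells, among 746 genes called in all. *Vamp2* in pituicytes was no longer called. The part of free RNA in the UMIs outside IL cells was not tested otherwise.

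**Figure D5:**
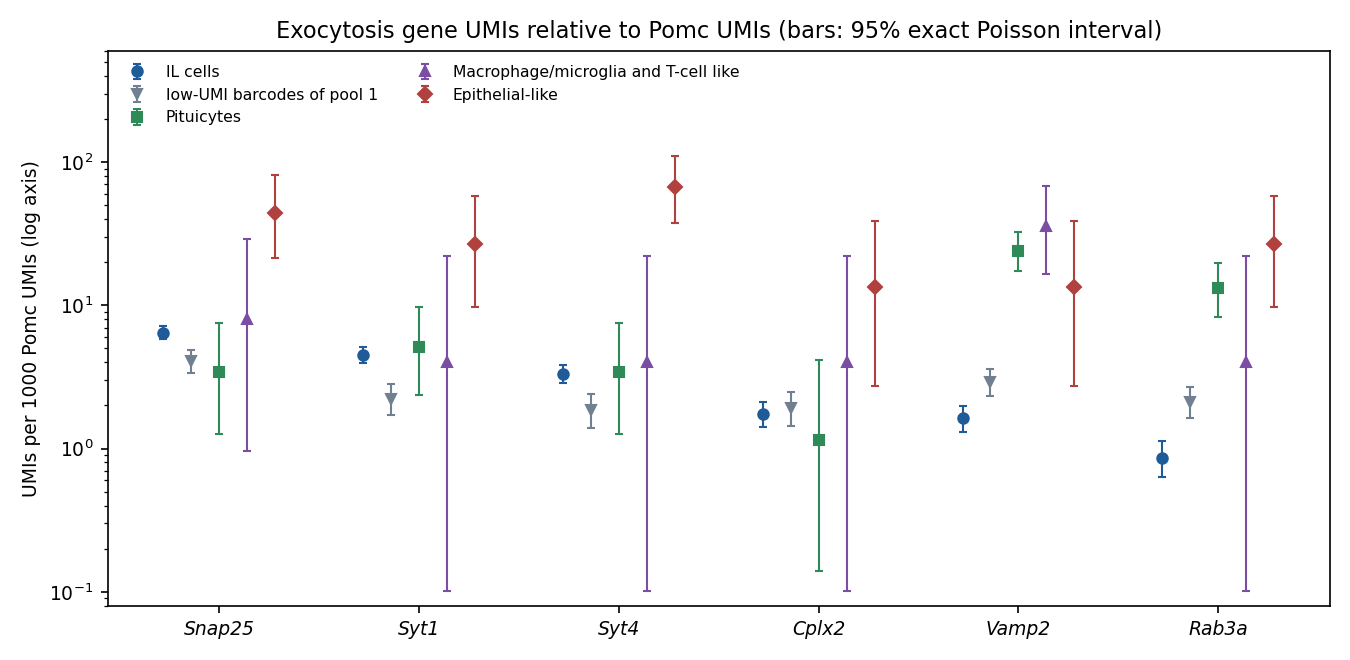
The number of UMIs per 1000 *Pomc* UMIs is plotted on a log axis for 6 exocytosis genes in IL cells, the low-UMI barcodes of pool 1, pituicytes, immune cells and epithelial-like cells, with exact Poisson 95% intervals of the gene's count. The cell types are over both pools, unlike the low-UMI barcodes. Pituicytes lie near IL cells in *Snap25*, *Syt1*, *Syt4* and *Cplx2*, from few UMIs. Of these, 1 pituicyte with 9.05% *Pomc* held 5 of 6, 4 of 9, 6 of 6 and 1 of 2, in the same order. Pituicytes lie above IL cells in *Vamp2* (24.1 against 1.63) and *Rab3a* (13.2 against 0.86), and immune cells lie at 36.0 in *Vamp2*.

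Markers of neurons were counted beside these genes, since the machinery is also that of nerve endings. Of the 11 neuronal markers, which include *Oxt* and *Avp*, 10 had UMIs in IL cells and 9 in pituicytes, and they summed to 1120 and 894 CPM in IL cells and to 904 and 892 CPM in pituicytes, with *Nefm* at 0 in IL cells and *Tubb3* and *Nefl* at 0 in pituicytes. In the other types the sums ran from 72.8 to 1987 CPM. In T-cell like cells *Oxt* and *Avp* were the only markers of this list with UMIs. For *Snap25* the level over both pools was 680 CPM in IL cells and 12.3 CPM in pituicytes, where 1 cell held 5 of the 6 UMIs. The part of neuronal RNA in the results was not tested.

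A wider list of 92 other exocytosis genes was read in the same fit. Of these 86 had a UMI and 25 were tested, of which 12 were called higher in IL cells, 1 lower and 12 neither, beside 16.9% of all genes tested called higher. The same filter on low counts applied, which genes such as *Syp* (88.9 and 100 CPM in IL cells) could pass through the IL cells alone. The count of 12 is therefore a description and not support for a difference. The count of 12 fell to 3 with DESeq2 and to 2 with a mitochondrial share under 10%. Among calcium channels, both tested genes were higher, *Cacna2d1* (ln fold change 3.87, SE 0.46) and *Cacnb4* (1.65, SE 0.63), though *Cacnb4* was also higher in pituicytes (3.20, SE 0.44). Among regulators and priming factors, the Munc13 relative *Baiap3* (3.66, SE 0.47) and the *Cadps* paralog *Cadps2* (2.70, SE 0.55) were higher.

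*Cadps2* was at 85.3 and 112 CPM in IL cells, where its paralog *Cadps* had 5 UMIs in all. Of vesicle membrane proteins, *Syp* (3.43, SE 0.58), *Sv2a* (2.91, SE 0.43) and *Vat1* (1.21, SE 0.31) were higher and *Sypl* was lower (-1.43, SE 0.41). The calcium sensor *Syt7* (3.43, SE 0.59) and the granule GTPase *Rab27b* (2.29, SE 0.42) were higher too. Of the 7 other SNAREs tested, *Stx4a* (1.15, SE 0.45) and *Vamp4* (1.11, SE 0.41) were called and 5 were not. Other genes of the list were higher elsewhere. Macrophage/microglia were higher in the SNAREs *Vamp8* (1.45, SE 0.36) and *Snap23* (1.35, SE 0.39) and in *Syngr2* (2.08, SE 0.30). *Snap23*, a relative of *Snap25*, was at 124 and 102 CPM in macrophage/microglia, and its ln fold change in IL cells was -0.54 (SE 0.46, adjusted p = 0.45). Pituicytes were higher in *Stxbp6* (2.02, SE 0.57) and *Syt11* (1.11, SE 0.25), and VLMC in *Syt11* (1.52, SE 0.40, 15 UMIs, 236 and 861 CPM). Epithelial-like cells were higher in *Cadps2* (2.81, SE 0.73, 11 UMIs, 311 and 84.6 CPM), *Stxbp6* (2.68, SE 0.69, 10 UMIs, 311 and 67.7 CPM) and *Sypl* (1.14, SE 0.38, 17 UMIs, 259 and 203 CPM). The calls in these 2 small types rest on few UMIs, and their results under the alternatives are not given. Of all genes tested, 16.5% were called higher in macrophage/microglia, 16.8% in pituicytes, 2.88% in VLMC and 8.00% in epithelial-like cells.

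The genes outside both lists with the most similar pattern were found by the correlation of log2(CPM + 100) over the 14 sums with the mean of the 6 tested genes. The highest Pearson r values were those of *Scg5* (0.98), *Fam183b* (0.97), *Actl6b* (0.97), *Rorb* (0.97), *Prox1* (0.97), *Gulo* (0.97), *Sphkap* (0.96), *Sez6l2* (0.96), *Scg3* (0.96) and *Lrp11* (0.96). *Scg5*, which encodes a chaperone of a prohormone convertase, was at 670 ± 61.9 CPM in IL cells (SD, n = 2 pools). With the same mean, *Snap25* had r = 0.98, *Syt4* 0.95, *Syt1* 0.94, *Rab3a* 0.75, *Cplx2* 0.71 and *Vamp2* 0.63. The 2 sums of a type share its cells' identity and those of a pool its library, and the pattern is mostly that of IL cells against the rest, so that these values are a description.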

How the data were processed

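For each pool the authors deposited a matrix of UMI counts, not normalized. The methods of the paper state Cell Ranger 2.0.0 (1500 forced cells, a prebuilt mm10 reference), and the labels list more than 1 version. The matrix of pool 1 held 737280 barcodes and that of pool 2 only 1500, so that low-UMI barcodes could be read for pool 1 alone. In pool 1 the 1500 barcodes with the most UMIs were taken. The authors also deposited a table of 11 cluster means over both pools, which are scores on a linear scale (UMIs per 10000 of a cell, averaged over the cluster) from Seurat 2.3.

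The limits of the study on cells were over 1000 and under 10000 UMIs, over 400 and under 5000 genes, and under 25% mitochondrial UMIs. Each cell was assigned to the cluster whose deposited mean took its weight in a non-negative fit (lowest weight 0.989). UMIs were summed per pool and type into 14 sums and given as counts per 1000000 (CPM). Tests were by edgeR 4.0.16 in R 4.3.3 (quasi-likelihood, TMM, minimum count 5, minimum total 15, 7 residual degrees of freedom), without a pool block, and DESeq2 1.42.0 was an alternative. The types of a pool share its mice and its library, so that the pool number pairs them. Their pool differences correlated between -0.035 and 0.15 over 21 pairs of types. The fit was tested on simulated counts.

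The 9 genes, the wider list and the markers were chosen with earlier results of these data known. Named genes were the 9, every gene of the wider list called higher in a type (except 1 that is not reported here), and the 10 genes most alike by r. *Sypl*, the 1 gene called lower in IL cells, and the comparison of *Snap23* were named after their values were seen. Doublets (Scrublet in scanpy 1.11.5) were kept, and RefSeq promoter windows were read for 6 of the 9 genes. Intervals and limits of 3 counts cover counting error only.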

Additional observations from a re-analysis of the deposited data

Results flagged for a closer look

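UMIs of all 9 genes were also found in the barcodes that the limits on cells left out, 1227 of pool 1 and 1245 of pool 2 with 781061 and 747605 UMIs, which entered none of the comparisons. For 8 of the genes they were flagged as signal outside the main measurement, above the limit that a count of 0 allows, and *Cplx1* had 2 UMIs, under that limit of 3. These barcodes held 148 UMIs of *Snap25* (108 CPM in pool 1 and 85.6 in pool 2), 145 of *Syt4* (102 and 86.9 CPM), 128 of *Syt1* (78.1 and 89.6 CPM), 102 of *Vamp2* (73.0 and 60.2 CPM), 63 of *Cplx2* (41.0 and 41.5 CPM) and 52 of *Rab3a* (37.1 and 30.8 CPM). *Stx1a* and *Cadps* had 4 UMIs each. The level of *Snap25* there lay under that of IL cells (647 and 717 CPM) and above that of the barcodes with 1 to 50 UMIs (63.9 CPM). What these barcodes were was not tested.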

How the results depend on the processing

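Of the 24 alternatives, the number of the 9 genes called higher in IL cells stayed within 1.5 times of 6, at 4 with a mitochondrial share under 10% (where *Vamp2* and *Rab3a* failed the filter), 5 with DESeq2 and 7 with no filter. The count against pituicytes was 3 or 4 in all 24. The median ln fold change of the tested genes in IL cells, 3.79 over genes of which 3 entered through the IL cells, became 3.67 with library sizes only, 3.00 with DESeq2, 4.10 with a mitochondrial share under 10%, 4.92 without the cells over 1% *Pomc* or *Gh* (added after seeing the data), 3.93 without doublets, and 3.63 to 4.11 without 1 sum at a time. The 760 genes called in IL cells became 478 with library sizes only, 2304 with no filter, 200 with DESeq2, 271 with a mitochondrial share under 10%, and 658 to 1189 without 1 sum. The 12 genes of the wider list became 40 with no filter, 3 with DESeq2, 2 with a mitochondrial share under 10%, and 10 to 19 without 1 sum. The 3 calls of the 9 genes in types other than IL cells became 0 with DESeq2 and 2 to 4 without 1 sum. The 4 genes called against epithelial-like cells became 2 with library sizes only, 0 with DESeq2, 1 with a mitochondrial share under 10%, and 1 to 4 without 1 sum. The cause of these changes was not tested, other than that DESeq2 and the leave-outs change the fit or the sums.

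With the pool as a replicate block the counts were 6 of the 9 genes and 735 of all genes higher in IL cells (median ln fold change of the 6 genes 3.80), 11 of the wider list, 3 in other types, 4 against pituicytes and 5 against epithelial-like cells, where *Syt4* was added. Clustering again without the exocytosis genes returned 141 of the 148 IL cells and called the 6 genes again (median 3.89), with 579 of all genes. Of the 528 cells 27 changed type, and 28 cells were named VLMC against 11 before. Against pituicytes *Snap25* rose from 4.01 to 5.36, *Syt4* from 3.35 to 5.77 and *Syt1* from 3.27 to 4.18. Against the mean of the other types *Snap25* fell from 4.87 to 4.45 and *Syt4* rose from 4.24 to 4.68. Of the single genes' ln fold changes in IL cells, 140 of 141 values under alternatives kept their direction and their call, the other being *Rab3a* with DESeq2 (1.71, adjusted p = 0.14). A sum left out leaves 1 pool of that type, which is then assumed to vary like the other types. Depth limits the small types most, where 3 counts are 35.7 CPM in T-cell like cells and 127 in VLMC.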
